A study of Mus musculus with 18 samples.

Results

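KN1 mice carry a deletion of Notch1 made in adult epidermis by a tamoxifen-dependent Cre recombinase under the keratin 14 promoter, which is active in the basal layer. The libraries were chosen by their labels: 4 KN1 mice were compared with the 2 controls that share their cage batch (control 1 and control 7), which makes 6 of the 18 libraries of the series. The KN1 genotype is written K14-CreERT1+Notch1-deletion. For the controls the labels say only that they belong to KN1, so whether they carried the driver or a floxed allele is unknown here. Tamoxifen was injected at 8 weeks of age, per the labels in all groups, and skin was taken 10 weeks later. Back skin labelled as resting (telogen) was kept in trypsin overnight, the epidermis was scraped off and strained to remove hair shafts, and poly(A) RNA was sequenced. Hair shaft and matrix genes were high in KN1 mice 2 and 4 all the same, and their values are given below. The other mutants lack Rbpj through K14-CreERT (KR, 4 mice with 2 controls of their own) or through Lrig1-CreERT2 (LR, 3 mice with 3 controls). Their libraries entered the fit of all 18 libraries, which gave the spread behind the KN1 tests. Their values are given beside those of KN1 in places, and differences from their changes were tested.

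Notch receptors are cut when a ligand on a neighbouring cell binds them, and the freed intracellular domain enters the nucleus and joins the DNA-binding protein RBPJ to switch on target genes such as those of the Hes and Hey families. In the epidermis the pathway is known for promoting the exit of basal keratinocytes into differentiation, and its loss is known to alter hair follicles, sebaceous glands and the barrier. CreERT is Cre fused to the hormone-binding part of the estrogen receptor, which holds the enzyme inactive until tamoxifen is given.

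The libraries were those of keratinocytes. Krt5 and Krt14, the basal keratins, stood at 15795 to 18640.0 and 9664 to 11726 CPM (counts scaled to library size with edgeR's TMM factors) in KN1, against 15569 to 17149 and 8655 to 10230.1 CPM in controls. Krt10, the suprabasal keratin, stood at 15644 to 20979.5 CPM in KN1 and at 17844 and 20368 CPM in controls. Total counts were 8103155 to 9213875 in KN1, against 21216169 in control 1 and 10926731 in control 7. Control 1 merges reads of 1 mouse from 2 sequencing occasions. Control 7 has a second name of the form that the repeat runs carry, and no KN1 library has one. A covariate was scored from these names (0 for no second name, 0.5 for the merged library, 1 for a second name). It stands for a possible other sequencing occasion, which the labels do not state for control 7. Within this cohort that occasion cannot be told apart from genotype. Over all 18 libraries only controls differ in the score within a group: the KN1 pair, the KR pair, and LR control 5 from LR controls 2 and 3. By Xist and Y-linked counts each group held both sexes. KN1 mice 1 and 2 and control 1 were female, and KN1 mice 3 and 4 and control 7 male. Leaving out either control therefore leaves controls of 1 sex. Fibroblast genes summed to 377 to 517 CPM in KN1, against 399 and 544 CPM in controls, and endothelial genes to 17.99 to 20.95 CPM in KN1, against 11.5 and 12.7 CPM in controls, and their part in the results was not tested. In bulk skin, fewer cells of a type and less RNA per cell cannot be told apart.

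Notch1 itself was measured first (chromosome 2, positions 26457903 to 26516663 of GRCm38, which is mm10). It had 105, 156, 81.9 and 107 CPM in KN1 mice 1 to 4, against 251 and 172 CPM in control 1 and control 7. Every KN1 mouse lay below both controls, and KN1 mouse 2 came nearest to them. The level fell to 112 ± 31.2 CPM in KN1 (SD, n = 4), against 212 ± 56.2 CPM in controls (n = 2), which is -0.91 ± 0.19 as a log2 fold change with its SE. The adjusted p was 0.0251 in edgeR's quasi-likelihood test, adjusted over all genes by Benjamini-Hochberg, the source of every adjusted p from here on. Both controls were themselves below the 318 to 412 CPM of the 12 libraries of the other cohorts. Whole-gene counts do not resolve the deleted exon. Notch1 missed the threshold without control 1 (-0.62, adjusted p = 0.163) and without control 7 (-1.17, adjusted p = 0.119), and was called in 11 of 16 alternatives.

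The rest of the pathway showed no other change past the threshold. Of 32 tested receptors, ligands and processing genes, 0 rose and 1 fell, which was Notch1, and 15 of 32 had a positive log2 fold change. Their median was -0.04, beside 0.02 over all 16517 genes tested. The other receptors had 97.0 to 119 CPM (Notch2) and 145 to 201 CPM (Notch3) in KN1, against 102 and 132 CPM (Notch2) and 173 and 174 CPM (Notch3) in controls. Jag2, a ligand of the basal layer, had 862, 806, 685 and 630.3 CPM in KN1 and 599.7 and 385 CPM in controls. The 4 KN1 mice were above both controls, but the change of 0.60 ± 0.20 on the log2 scale missed the threshold of 0.05 (adjusted p = 0.128). Dll1, another ligand, had 122, 90.2, 108 and 85.9 CPM in KN1 and 113 and 46.9 CPM in controls (0.34, adjusted p = 0.487). Dll1 passed without control 1 (1.11, adjusted p = 0.0343) and had -0.15 without control 7. Rbpj had 30.9 to 36.8 CPM in KN1 and 42.6 and 44.2 CPM in controls (-0.34, adjusted p = 0.31).

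**Figure D1:**
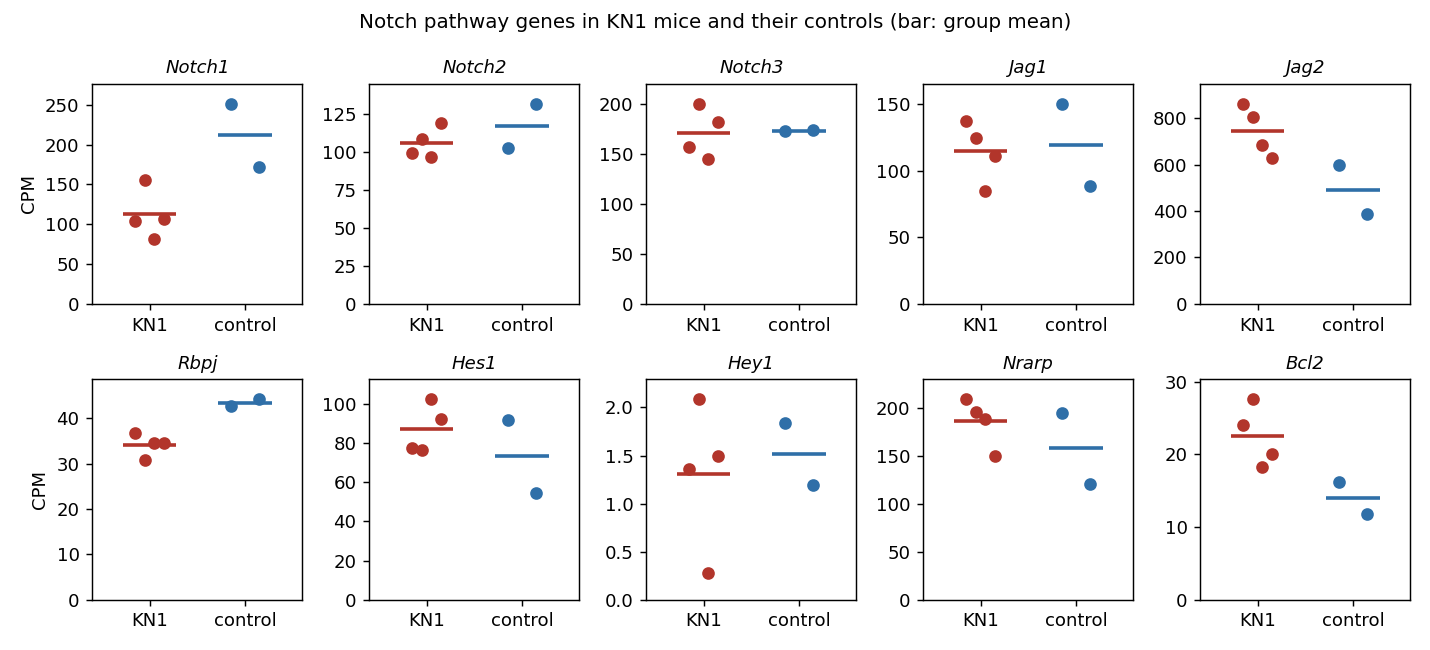
CPM of 10 Notch pathway genes by mouse, KN1 (red, 4 mice) left of controls (blue, 2 mice), with a bar at each group mean. Notch1 lies at 81.9 to 156 CPM in KN1 and at 172 and 251 CPM in controls, while Notch2, Notch3, Jag1, Hes1, Hey1 and Nrarp overlap between the groups.

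Among 18 tested genes that Notch is known to activate, 0 rose and 1 fell, with a median log2 fold change of 0.24. The gene that fell was Cd3g, a T cell receptor component that also stands in the T cell list, where 27 of 28 genes had a negative log2 fold change. Whether its fall reflects Notch activity was not tested. Hes1, a direct target in many tissues, had 77.3, 76.6, 102 and 92.0 CPM in KN1 and 91.8 and 54.6 CPM in controls (0.25 ± 0.25, adjusted p = 0.634). Hey1, another direct target, had 0.277 to 2.08 CPM in KN1 and 1.83 and 1.19 CPM in controls (-0.22, adjusted p = 0.853). Nrarp, a feedback inhibitor of the pathway, had 150.3 to 209 CPM in KN1 and 195 and 121 CPM in controls (0.23, adjusted p = 0.66). Bcl2, a survival factor, had 18.3 to 27.6 CPM in KN1 and 16.2 and 11.7 CPM in controls (0.68, adjusted p = 0.141). For Hes1 and Nrarp the groups overlapped, and the sign of the change depended on control 7. The median of the list was -0.01 over the 15 members with a mean of at least 1 CPM and -0.04 with the covariate for second names.

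The letters TGGGAA, the core that RBPJ binds, and the longer GTGGGAA were searched on both strands of the RefSeq promoter windows (GRCm38.p6, 250 bases before to 50 after each start), the second being contained in the first. The longer form was in 6 of 68 genes with a window that rose (8.82%) and in 10 of 115 that fell (8.7%), beside 7.38% of the tested genes with a window. The shorter form was in 13 of 68 that rose (19.1%) and 36 of 115 that fell (31.3%), beside 26.8%. Mill1, a relative of MHC class I genes, and Cd3g are described below and hold the longer form. The 250 bases before their starts are shown, with it in capitals.
Mill1 (chr7:18245097-18245346, plus strand): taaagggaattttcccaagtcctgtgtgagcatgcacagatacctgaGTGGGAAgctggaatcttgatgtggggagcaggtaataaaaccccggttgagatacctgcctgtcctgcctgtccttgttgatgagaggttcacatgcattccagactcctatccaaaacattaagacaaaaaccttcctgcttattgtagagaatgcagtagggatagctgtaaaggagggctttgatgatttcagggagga
Cd3g (chr9:44980432-44980681, minus strand): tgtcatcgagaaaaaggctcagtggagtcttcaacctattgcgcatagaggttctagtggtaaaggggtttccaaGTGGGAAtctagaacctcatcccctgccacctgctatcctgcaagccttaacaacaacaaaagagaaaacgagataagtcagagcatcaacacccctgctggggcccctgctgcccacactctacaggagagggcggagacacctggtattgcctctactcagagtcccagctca
A match of letters is a description, and binding was not measured.

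Across the genome 325 of 16517 genes (1.97%) passed the threshold, 142 higher in KN1 (0.86%) and 183 lower (1.11%). Of these, 77 rose and 48 fell by at least 2-fold. Over all genes tested 51.8% had a positive log2 fold change. Counts of called and of positive members in the gene lists are to be read beside these shares. In all 325 the 4 KN1 mice lay beyond both controls, which was so for 28.1% of all genes tested. The count rested on the controls: it was 242 without control 1 and 2 without control 7, and 19 with the covariate for second names, which is 0 in every KN1 mouse and above 0 in both controls. DESeq2 called 820 genes, 317 of them shared. A covariate for sex gave 397 calls, 321 of them shared.

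Gypc, which encodes a red cell membrane glycophorin, led the rises among genes with an ordinary symbol and at least 5 CPM. It had 16.1, 21.8, 14.1 and 14.5 CPM in KN1, against 0.714 and 0.217 CPM in controls. The log2 fold change was 4.95 ± 0.48 (adjusted p = 0.000104), and Gypc was called in 16 of 16 alternatives. KR mice, which share the K14-driven Cre, stood at 14.7 to 22.2 CPM, against 0.0966 and 0.541 CPM in their controls. LR mice stood at 0 to 0.0959 CPM, against 0.339 to 0.894 CPM in their controls. The other 6 tested red cell genes did not pass, and the list summed to 60.1 to 79.2 CPM in KN1 and 56.9 to 65.5 CPM in controls.

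Tslp, an epithelial cytokine of allergic inflammation, lies 255 kb from Gypc. It had 2.23, 2.43, 3.18 and 2.30 CPM in KN1 and 0.408 and 0.76 CPM in controls, and it rose by 2.19 ± 0.52 on the log2 scale (adjusted p = 0.0378). All 4 KN1 mice were above both controls, at a low level. Within 1 Mb of Gypc 19 genes were tested and 2 passed, Gypc itself and Tslp, beside 1.97% of all genes. Gypc was taken as the centre because it led the rises, and whether the 2 rises are linked was not tested. In KR the change of Tslp was 5.58 (adjusted p = 0.000128) and in LR 2.58 (adjusted p = 0.00411), and neither differed from the KN1 change past the threshold (adjusted p = 0.264 and 0.96). Within 10 Mb of Notch1 217 genes were tested and only Notch1 itself passed, beside the same 1.97% of all genes.

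Esr1, the estrogen receptor gene, had 26.9, 26.9, 21.2 and 15.6 CPM in KN1, against 6.78 and 3.80 CPM in controls. It rose by 2.06 ± 0.31 on the log2 scale (adjusted p = 0.00641) and was called in 15 of 16 alternatives. KR mice had 17.0 to 25.3 CPM against 5.14 and 7.63 CPM in their controls, and LR mice had 5.27 to 6.03 CPM against 3.19 to 5.81 CPM in theirs. High counts stood in both groups with a K14-driven Cre. Whether reads from the receptor part of CreERT were counted as Esr1 was not tested.

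Mill1 had 131, 81.7, 107 and 129 CPM in KN1, against 45.3 and 34.5 CPM in controls (1.49 ± 0.23, adjusted p = 0.00761). It also rose in KR (1.46, adjusted p = 0.0102), where 0.696% of all genes rose, and in LR (1.12, adjusted p = 0.00775), where 0.872% rose. The KR controls had 66.0 to 78.5 CPM of Mill1 and the LR controls 117 to 185 CPM, all above the KN1 controls. Its lowest log2 fold change among the alternatives was 0.22. Klf9, a zinc finger factor that responds to glucocorticoids, had 150.2, 166, 201 and 235 CPM in KN1 and 71.3 and 73.7 CPM in controls. Each KN1 mouse exceeded both controls, and Klf9 rose by 1.38 ± 0.23 on the log2 scale (adjusted p = 0.00881). The changes of Klf9 in KR (0.02) and LR (-0.37) did not differ from that in KN1 past the threshold (adjusted p = 0.25 and 0.0587). Of 15 tested KLF factors 2 rose, Klf9 and Klf7 (1.20, adjusted p = 0.0124), beside 0.86% of all genes.

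The other rises by fold were spread over many functions. Crispld2, a secreted protein gene, had 29.1, 13.3, 33.9 and 16.9 CPM in KN1, against 5.20 and 4.45 CPM in controls (2.26, adjusted p = 0.0135). Ceacam12 (1.97), the immunoglobulin superfamily gene Igsf3 (1.82) and the adhesion receptor gene Adgrl3 (1.77) also rose. So did the zinc finger gene Bnc2 (1.52) and the calcium release channel gene Ryr1 (1.45), with adjusted p from 0.0109 to 0.038 over these genes. Controls of the other cohorts had 7.91 to 15.1 CPM of Bnc2, a range that held the KN1 mean of 10.1 CPM. Those controls had 4.78 to 6.78 CPM of Ryr1, against 5.40 to 7.06 CPM in KN1. For Igsf3 the ranges were 27.5 to 76.2 and 39.97 to 75.4 CPM. Ceacam12 and Adgrl3 overlapped those controls too, while Crispld2 lay above them in every KN1 mouse. The lowest log2 fold change among the alternatives was 0.18 for Bnc2 and 0.40 for Ryr1. Rises of smaller size were those of Ppargc1b, a coactivator of mitochondrial genes (1.40), Card10, an adaptor of NF-kB signalling (1.35), Hivep3 (1.35) and Cmip (1.35). Cmip was called in 15 of 16 alternatives, with 121 to 171 CPM in KN1 and 64.1 and 47.2 CPM in controls.

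**Figure D2:**
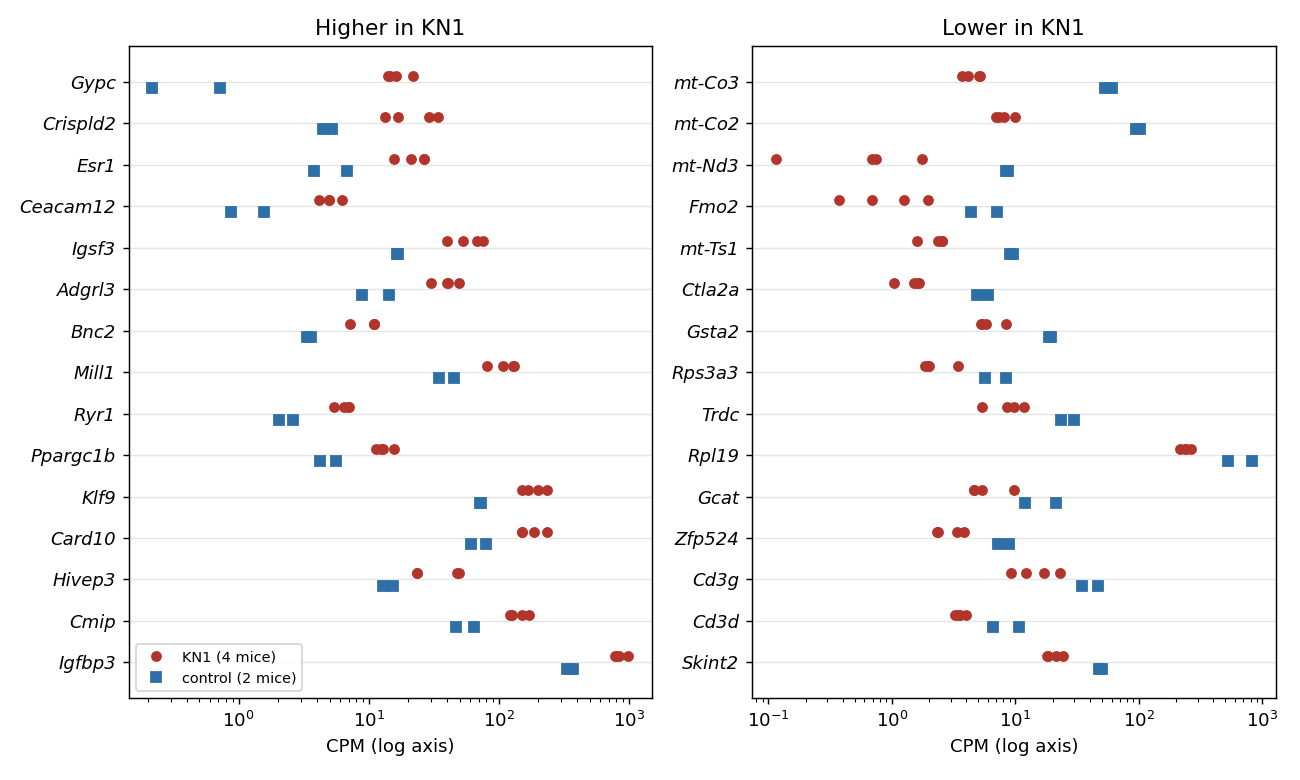
CPM on a log axis for 15 genes with large rises (left) and 15 with large falls (right), KN1 as red circles above controls as blue squares. They were ranked among called genes with an ordinary symbol and a mean of at least 5 CPM in the higher group. Tslp (log2 fold change 2.19), under that level, and the processed pseudogene Rps19-ps6 (2.02) are not drawn. No gene shows overlap between groups, which the choice of genes required; Gypc is at 14.1 to 21.8 CPM in KN1 and under 1 CPM in controls.

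Basal layer genes held 3 called members of 22, all higher in KN1, beside the 0.86% of all genes that rose. A positive log2 fold change was found in 18 of 22, beside 51.8% of all genes, and the median was 0.24. Igfbp3, a binding protein of insulin-like growth factors, had 844, 789.6, 992 and 792 CPM in KN1, against 333 and 374 CPM in controls (1.27 ± 0.22, adjusted p = 0.0113). Plec and Itgb4, both parts of the hemidesmosome that anchors basal cells, had 1079 to 1438 CPM and 722 to 914 CPM in KN1, against 753 and 699 CPM and 539 and 501 CPM in controls. Their log2 fold changes were 0.81 (adjusted p = 0.0173) and 0.65 (adjusted p = 0.0456). Without control 1 the median of the list was 0.02 and 0 members were called. Krt5 (0.09) and Krt14 (0.15) did not pass. Lrig1, a stem cell gene of the upper follicle, had 296, 437, 227 and 296 CPM in KN1 and 274 and 246 CPM in controls (0.27, adjusted p = 0.589), and the groups overlapped.

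Of 45 tested suprabasal and cornified envelope genes 0 passed, 23 had a positive log2 fold change, and the median was 0.02. It was -0.36 with the covariate for second names (14 of 45 positive) and 0.19 against all 7 controls of the series (30 of 45). Dsg1a, a desmosomal cadherin, had 703 to 829 CPM in KN1 and 1513 and 1799 CPM in controls (-1.10 ± 0.31), which missed the threshold (adjusted p = 0.0774). Krt1 had 1596 to 2609.6 CPM in KN1 and 2706 and 4729 CPM in controls (-0.84, adjusted p = 0.236). Pou3f1, a POU factor of differentiating epidermis, rose, with 689 to 1035 CPM in KN1 and 569.6 and 283 CPM in controls (1.01, adjusted p = 0.0441).

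Barrier lipid genes were mostly lower: 19 of 22 had a negative log2 fold change, with a median of -0.34, and 1 fell past the threshold. Sptlc3, for the first step of ceramide synthesis, had -0.94 (adjusted p = 0.0535), and Abhd5, a lipase cofactor, -0.55 (adjusted p = 0.0627). Without control 7 the median was -0.15 and 0 members were called. Sebocyte lipid genes held 1 called member of 38, Me1, which supplies NADPH for lipid synthesis, with 185 to 206 CPM in KN1 and 368 and 283 CPM in controls (-0.73, adjusted p = 0.0404). Their median was -0.11, and that of 26 cholesterol genes, 0 of them called, was -0.29.

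Hedgehog pathway genes, which act in follicle growth, held 1 called member of 15, beside the 0.86% of all genes that rose. Smo, the signal transducer, had 137, 191, 133 and 169 CPM in KN1 and 88.5 and 101 CPM in controls (0.73 ± 0.18, adjusted p = 0.0441). Gli1 had 25.4, 43.1, 17.2 and 44.3 CPM in KN1 and 12.2 and 13.0 CPM in controls (1.37, adjusted p = 0.156). Gli1 was higher in KN1 mice 2 and 4, the mice in which hair shaft and matrix genes were also high: those 29 genes summed to 104, 1051, 90.1 and 327 CPM in KN1 mice 1 to 4, against 111 and 84.5 CPM in controls. No hair gene passed the threshold. Their part in the other results was not tested, and without these 2 mice 16 genes were called, 15 of them among the 325.

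Of 28 tested epidermal T cell genes 4 fell, beside 1.11% of all genes, 27 had a negative log2 fold change, and the median was -0.68. Trdc, the constant chain of the gamma delta receptor, had 11.8, 9.72, 8.58 and 5.40 CPM in KN1, against 29.8 and 23.5 CPM in controls (-1.59 ± 0.36, adjusted p = 0.0343). Cd3g had 22.9, 16.9, 12.2 and 9.19 CPM in KN1 and 46.5 and 34.8 CPM in controls (-1.41, adjusted p = 0.0317). Cd3d fell by 1.29 on the log2 scale (adjusted p = 0.0317) and Ctla2a, a protease inhibitor gene, by 1.91 (adjusted p = 0.0276). Skint2, one of a keratinocyte gene family related to the selector of these cells, had 18.1 to 24.1 CPM in KN1 and 47.8 and 50.5 CPM in controls (-1.27, adjusted p = 0.0204). It was the only called member of 11 tested Skint genes, which share sequence. The T cell list summed to 177 to 241 CPM in KN1, against 404 and 309 CPM in controls and 135 to 382 CPM in the other cohorts. Without control 1 its median was -0.15 with 9 of 28 positive, and without control 7 it was -0.92, with 0 members called in both. Against all 7 controls of the series it was -0.30, with 5 of 27 positive and 1 called.

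Of 10 MHC class II genes 0 passed, 10 had a negative log2 fold change, and the median was -0.56. It was -0.15 without control 1, with 2 of 10 positive, and -0.99 without control 7, and against all 7 controls of the series it was -0.16 with 4 positive. Cd74, the invariant chain, had 298 to 361 CPM in KN1 and 809 and 534 CPM in controls (-0.98, adjusted p = 0.0748). Its change in KR was 0.80 and in LR 0.48, and the differences from KN1 did not pass (adjusted p = 0.25 and 0.276). Langerhans cell genes had a median of -0.17, with 0 of 17 called, and of 0.06 without control 1 and 0.33 against all 7 controls. Melanocyte genes held 1 called member of 14, Pmel, a pigment fibril gene, at 23.4, 23.2, 24.8 and 25.2 CPM in KN1 and 13.1 and 10.7 CPM in controls (1.01 ± 0.25, adjusted p = 0.0423). Their median was 1.01, or 0.63 without KN1 mice 2 and 4, and 12 of 14 were positive. Over all genes 0.86% rose and 51.8% were positive. The melanocyte list summed to 125 to 194 CPM in KN1, against 114 and 126 CPM in controls and 137 to 247 CPM in the other 12 libraries. Against all 7 controls its median was 0.11.

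**Figure D3:**
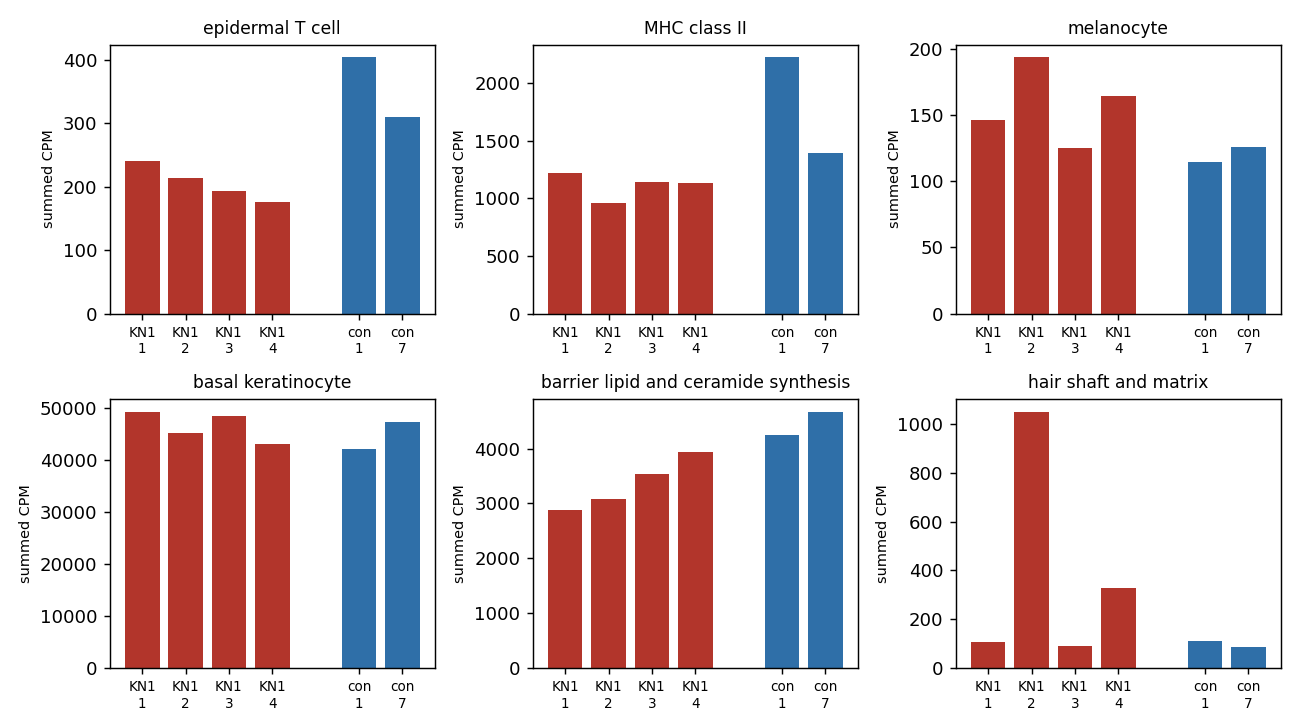
Summed CPM of 6 gene lists in each library, KN1 mice 1 to 4 (red) left of control 1 and control 7 (blue). The T cell list is at 177 to 241 CPM in KN1 and 309 and 404 CPM in controls, and the hair shaft and matrix list is high in KN1 mice 2 (1051 CPM) and 4 (327 CPM) alone among these libraries.

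Wound and stress genes held 1 called member of 26, Tslp, with a median of 0.69. Sprr1a, a cornified envelope precursor of stressed epidermis, had 153, 286, 282 and 273 CPM in KN1 and 100.3 and 145 CPM in controls (1.02, adjusted p = 0.127). Cell cycle genes (0 of 40 called, median 0.11), bulge stem cell genes (0 of 23, 0.26), upper follicle genes (0 of 17, 0.25), desmosome and junction genes (0 of 34, 0.01), interferon genes (0 of 23, 0.40) and immediate early genes (0 of 26, -0.04) had no member past the threshold. Without control 1 the cell cycle median was -0.27, and without KN1 mice 2 and 4 the medians were -0.09 for cell cycle, 0.0090 for bulge and 0.09 for upper follicle genes. No member passed either for the Wnt (0 of 36, median 0.16), TGF-beta and BMP (0 of 25, 0.14), EGF receptor (0 of 17, 0.13), retinoid (0 of 17, 0.10), circadian clock (0 of 19, -0.10) and p53 (0 of 20, 0.12) lists. Of 21 nuclear hormone receptors 1 was called, Esr1. No member passed among fibroblast (19, median 0.10), endothelial (9, 0.62), muscle (7, 0.33), macrophage and neutrophil (8, -0.34), Schwann cell (8, 0.29), adipocyte (4, -0.04), Merkel cell (3, -0.05), mast cell (2, 0.66) and B cell (1, -0.99) genes.

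Among the lists, that of the translation machinery held the most falls. Of 59 tested cytosolic ribosomal protein genes 20 fell (33.9%, beside 1.11% of all genes), 59 of 59 had a negative log2 fold change, and the median was -0.47. Rps4x had 1375, 1293, 1473 and 1323 CPM in KN1, against 2168 and 2438 CPM in controls (-0.75 ± 0.12, adjusted p = 0.00881). Rpsa had 1858, 1942, 2255 and 1996 CPM in KN1 and 3145 and 4216 CPM in controls (-0.87, adjusted p = 0.0124). Rpl7 (-0.84), Rps14 (-0.77), Rplp1 (-0.74) and Rpl19 (-1.49) fell likewise, and in each the 4 KN1 mice were below both controls.

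Translation factors also held falls, read beside the 1.11% of all genes that fell. Of 12 tested eIF3 subunits, which load the small ribosomal subunit, 5 fell and 2 had a positive log2 fold change: Eif3f (-0.74), Eif3i (-0.71), Eif3e (-0.61), Eif3m (-0.60) and Eif3h (-0.52). Of 5 eEF1 subunits 3 fell, among them Eef1a1, which brings transfer RNA to the ribosome, with 6461, 6489.7, 6677 and 6219.6 CPM in KN1 and 9545 and 11522 CPM in controls (-0.70 ± 0.17, adjusted p = 0.0397). Tpt1 fell by 0.83 on the log2 scale (adjusted p = 0.0293). In the chaperonin CCT 2 of 8 subunits fell, Cct4 (-0.68) and Cct5 (-0.76), and in the V-type ATPase 2 of 20, Atp6v1e1 (-0.60) and Atp6v1d (-0.52). These families were picked after the values had been seen.

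The controls stood apart on these genes. Ribosomal protein genes took 6.64 to 7.40% of counts in KN1, against 8.93% in control 1 and 9.67% in control 7, and 4.64 to 6.72% in the 12 libraries of the other cohorts. Set against all 7 controls of the series, the median of the list was 0.10, with 43 of 59 positive and 0 called. Without control 7 it was -0.35 with 0 called, and with the covariate for second names -0.43 with 0 called.

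Ribosomal messages are known for a run of pyrimidines at their 5′ end, which begins with a C and places them under growth control. The letters CTTTC were searched on the gene's strand, from 20 bases before to 30 after the RefSeq start. They were in 17 of 44 tested ribosomal protein genes with a window (38.6%), beside 6.66% of the tested genes with one. Of the 20 genes that fell, 12 had a window and 6 of these held CTTTC. A match anywhere in the searched stretch was counted, so these counts do not show a run at the 5′ end itself. The windows of 4 of the 6 genes, from 30 bases before to 30 after the start, are shown, with CTTTC in capitals. It begins at base 1 after the start in Rplp2, base 5 in Rps10 and base 23 in Rpsa. In Rpl35 it begins 5 bases before the start and again at base 3 after it.
Rpl35 (chr2:39005102-39005161, minus strand): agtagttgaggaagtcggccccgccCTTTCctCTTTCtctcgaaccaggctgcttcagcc
Rplp2 (chr7:141447621-141447680, plus strand): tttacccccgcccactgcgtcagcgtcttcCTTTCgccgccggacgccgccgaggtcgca
Rps10 (chr17:27635215-27635274, minus strand): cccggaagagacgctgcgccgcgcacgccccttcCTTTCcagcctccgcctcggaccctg
Rpsa (chr9:120127736-120127795, plus strand): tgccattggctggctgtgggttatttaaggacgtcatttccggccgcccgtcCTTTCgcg

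Mitochondrial genes were lower in 15 of 15 cases, with a median of -1.08 and 3 called. mt-Co3, a cytochrome oxidase subunit, had 5.07, 5.21, 4.15 and 3.68 CPM in KN1, against 53.5 and 60.3 CPM in controls (-3.65 ± 0.77, adjusted p = 0.0321). mt-Co2 (-3.60) and mt-Nd3 (-3.36) fell by a similar amount, and the mitochondrial transfer RNA gene mt-Ts1 by 2.03 on the log2 scale (adjusted p = 0.00881). All mitochondrial genes together took 0.650 to 0.981% of counts in KN1, against 1.11% and 1.23% in controls. With the covariate for second names the median was 0.07, with 9 of 15 positive and 0 called. mt-Co3 also fell in KR (-3.85, adjusted p = 0.0316), where 0.902% of all genes fell and the controls again hold the second names. In LR it did not pass (-2.24, adjusted p = 0.18), with 3.16 to 6.04 CPM in LR mice and 4.26 to 58.2 CPM in their controls. Of these controls only control 5 has a second name. Mitochondrial genes took 2.26% of its counts, against 0.895% and 0.892% in LR controls 2 and 3. Counts of genes with near-identical nuclear copies, such as these, are uncertain. Of 36 nuclear genes of complex I 2 fell, Ndufv2 (-0.63, adjusted p = 0.0288) and Ndufb5 (-0.59, adjusted p = 0.0317), and 31 had a negative log2 fold change. Mitochondrial ribosomal proteins held 2 that fell of 75, Mrpl24 (-0.65) and Mrps16 (-0.57), a share near the 1.11% of all genes.

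**Figure D4:**
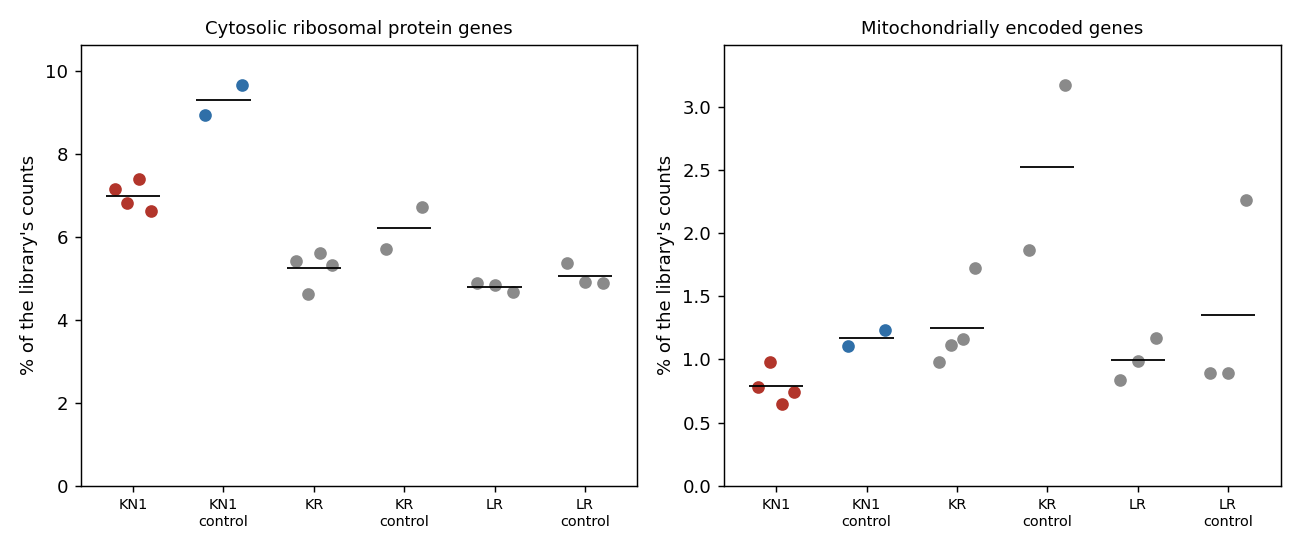
Percent of each library's counts on cytosolic ribosomal protein genes (left) and mitochondrial genes (right) in the 6 groups of the series, with a line at each mean; KN1 in red, its controls in blue, other groups in grey. The KN1 controls have the highest ribosomal percentages of the series (8.93 and 9.67%), and KN1 mice, at 6.64 to 7.40%, lie mostly above the other cohorts, which reach 6.72%.

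In a few nuclear protein families the rises are read beside the 0.86% of all genes that rose. Of 20 hnRNP proteins 1 rose and of 10 SR splicing factors 1 rose. Hnrnpa0, an RNA-binding protein gene, had 967, 1206, 1146 and 1179 CPM in KN1 and 641 and 470.4 CPM in controls (1.02 ± 0.23, adjusted p = 0.0317). Son, which organises nuclear speckles, had 397 to 549 CPM in KN1 and 299 and 216 CPM in controls (0.79, adjusted p = 0.0203), and Srsf11, a splicing factor, rose by 0.80 (adjusted p = 0.0351). Of 21 genes with TAF symbols, named for factors associated with the TATA-binding protein, 4 rose: Taf1d (1.27), Taf4b (1.04), Taf3 (0.78) and Taf15 (0.72). Taf4b had 7.24 to 7.80 CPM in KN1 and 3.31 and 4.12 CPM in controls, but 7.12 to 11.1 CPM in controls of other cohorts. Taf1d, at 42.1 to 82.8 CPM in KN1, overlapped those others (14.3 to 50.8 CPM). Taf3 and Taf15 lay above them in every KN1 mouse. The lowest log2 fold change among the alternatives was 0.06 for Taf4b and 0.14 for Srsf11. Nfix, a nuclear factor of hair follicle stem cells, had 803 to 1067 CPM in KN1 and 700.1 and 496 CPM in controls (0.63, adjusted p = 0.043). The controls of the other cohorts had 839 to 1078 CPM of Nfix, and its lowest log2 fold change among the alternatives was 0.10. These protein families too were picked after the values had been seen.

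Genes that rose and fell differed in length. Protein-coding genes found in GENCODE M21 were split into 5 bins of near-equal size by the summed length of their exons. In the bin of the shortest genes (up to 2500 nt, 2568 genes) 8 rose and 49 fell. In that of the longest (7606 nt and above, 2568 genes) 41 rose and 8 fell. Over all genes tested 0.86% rose and 1.11% fell. The medians of all genes in these 2 bins were -0.056 and 0.060 on the log2 scale. Without the ribosomal protein genes described above they were -0.047 and 0.060. The numbers of falls include ribosomal protein genes and were not recounted without them. The labels state only a lower bound on RNA integrity for all samples, and its part in this pattern was not tested.

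**Figure D5:**
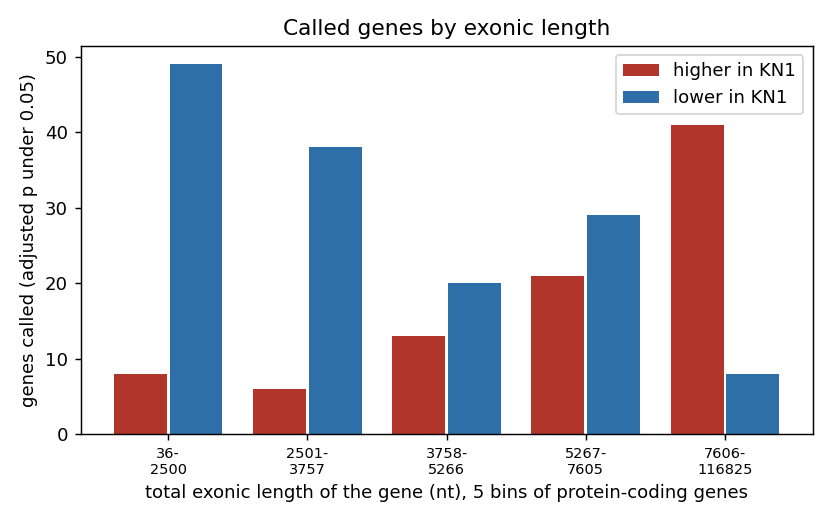
Number of protein-coding genes called higher in KN1 (red) and lower in KN1 (blue) in 5 bins of summed exonic length, in nucleotides. Among the 5 bins, rises outnumber falls in that of the longest genes only (41 against 8), and the bin of the shortest genes holds 8 rises and 49 falls.

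Xenobiotic and glutathione genes held 2 that fell of 30, beside 1.11% of all genes. Fmo2, a flavin monooxygenase, had 0.371, 1.97, 1.25 and 0.689 CPM in KN1, against 4.38 and 7.05 CPM in controls (-2.39 ± 0.56, adjusted p = 0.0374). Gsta2, a glutathione transferase, had 5.28 to 8.44 CPM in KN1 and 18.6 and 19.3 CPM in controls (-1.61, adjusted p = 0.03). Gcat, of threonine breakdown (-1.45), the zinc finger gene Zfp524 (-1.44) and Rps3a3, a pseudogene that may share reads with its parent (-1.60), were the other named falls. Zfp524 had 2.30 to 3.84 CPM in KN1 and 8.82 and 7.27 CPM in controls, but 3.06 to 3.86 CPM in controls of other cohorts. Gcat had 4.60 to 9.83 CPM in KN1 and 11.9 and 21.5 CPM in controls, but 2.96 to 7.48 CPM in the controls of the other cohorts. Those controls had 4.97 to 8.28 CPM of Fmo2 and 9.21 to 13.0 CPM of Gsta2, above the KN1 mice. Casp4, an inflammatory caspase, had 7.99 to 10.3 CPM in KN1 and 16.4 and 19.0 CPM in controls (-0.89, adjusted p = 0.0204).

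The KN1 changes were also set against those of the Rbpj deletions. A test of the difference between the KN1 and KR changes called 0 of 16517 genes, with 1251 at an unadjusted p under 0.05 and 38 called by DESeq2. The same test against LR called 1 gene (0.00605%), Gypc, whose change was 8.03 higher on the log2 scale in KN1 than in LR (adjusted p = 0.000774), with 67 called by DESeq2. The size rests on an LR change of -3.08 (adjusted p = 0.0714) fitted to 0 or 1 counts per LR library, so it is an estimate that depends on near-zero counts. Next in that order were Rps19-ps6, a processed pseudogene (2.02 in KN1 and -0.11 in LR), Klf9, and Casp4 (0.52 in LR), each with an adjusted p of 0.0587 for the difference. Of the 325 genes called in KN1, 304 had the same sign in KR (93.5%) and 292 in LR (89.8%), beside 67.0% of all genes tested in each, and 59 and 16 of them were also called there in the same direction, where 1.6% of all genes were called in KR and 1.12% in LR. The cohorts have controls of their own, and in KR too the controls carry the second names or merged runs. In LR control 5 has a second name, and no LR mutant has one.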

How the data were processed

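The authors deposited whole-number read counts per gene for 18 libraries. The submitters' processing notes name STAR, HTSeq, DESeq2 and mm10, with no version, and strand-specific counting is not stated, so overlapping genes cannot be told apart. From these counts, edgeR 4.0.16 (R 4.3.3, limma 3.58.1) fitted 6 group means over all 18 libraries with TMM factors, after filterByExpr by group left 16517 of 21011 genes. KN1 and its controls were compared by the robust quasi-likelihood test, two-sided, with Benjamini-Hochberg adjustment and a threshold of 0.05. CPM values carry TMM factors. P-values rest on the spread between single mice, as labelled, within the 6 groups, estimated over all 18 libraries. Most of these belong to the other cohorts, and only 2 are KN1 controls. Fitted alone, the KN1 cohort gave 98 calls. DESeq2 1.42.0, other scalings, filters, covariates and left-out mice were tried.

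The members and gene lists were chosen with earlier results of these data known. Named genes were Notch1, Rbpj, Krt14 and Lrig1, the 15 called genes with the largest fold in each direction (at least 5 CPM in the higher group, no overlap of groups, an ordinary symbol), the 5 most abundant called genes in each direction, called members of each list with up to 3 others of smallest adjusted p, and the leading genes of the tests of difference. Other genes (Dll1, Krt1, Krt5, Krt10, Son, Spen, Fgfr2, Tyrp1, Klf7, Srsf11 and members of the eIF3, eEF1, TAF, CCT, V-type ATPase, complex I and ribosomal families) were named after their values were seen. Gene lengths came from GENCODE M21. Some genes that the rule names are not reported here.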

Additional observations from a re-analysis of the deposited data

Results flagged for a closer look

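In 6 of 113 named genes 1 of the 4 KN1 mice stood apart from the other 3 by Dixon's criterion on log2 CPM. Chance meets this criterion in about 1 of 20 groups, so a few such genes are expected among 113 by chance alone. KN1 mouse 3 had 7.20 CPM of Bnc2, below the other KN1 mice. KN1 mouse 3 was above the others in Rps3a3 (3.46 CPM), Eef1b2 (648 CPM) and Rpl35 (601 CPM). KN1 mouse 1 had 14.4 CPM of Ptprc, above the others, and 153 CPM of Sprr1a, below them. The change of Gypc was 8.03 higher on the log2 scale in KN1 than in LR, by the test of the difference itself, with 0 or 1 counts of Gypc in each LR library.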

How the results depend on the processing

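The 325 calls became 820 with DESeq2, 98 with the KN1 cohort fitted alone, 1867 against all 7 controls pooled and 19 with the covariate for second names. Leaving out single mice gave 2 to 276 calls: 2 without control 7 (Gypc and a clone-named gene), 242 without control 1, and 276, 120, 202 and 97 without KN1 mice 1, 2, 3 and 4. Without KN1 mice 2 and 4, an alternative chosen after seeing the data, 16 were called. The difference from KR gave 38 calls with DESeq2 and 0 under each left-out mouse. The difference from LR gave 67 with DESeq2, 3 without the filter on low counts, and 1 to 3 with single mice left out. The share of calls that were higher was 43.7%, and 56.6% without control 1, 60.8% without KN1 mouse 2, 57.7% without KN1 mouse 4, 75% without both, and 89.5% with the covariate. Over the named genes, 1245 values kept direction and side of the threshold, 490 lost the call, 44 gained it and 29 changed sign. Of 37 lists, 13 had a median that changed sign with 1 mouse left out. Without control 1, and without control 7, 0 members passed in the Hedgehog, sebocyte, xenobiotic, melanocyte, wound, basal, T cell and Notch target lists. The cause of these changes was not tested.

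With single mice left out, the log2 fold change ran from -0.32 to 0.044 for Notch2, -0.10 to 0.053 for Notch3, -0.40 to 0.37 for Jag1, -0.082 to 0.67 for Hes1, -0.54 to 0.14 for Hey1, -0.073 to 0.61 for Nrarp and -0.15 to 1.11 for Dll1. With the covariate it was 0.28 for Notch2, 0.019 for Notch3, 0.091 for Rbpj, 0.10 for Jag1, -0.10 for Hes1 and -0.18 for Nrarp. The cohort alone gave 0.0047 for Notch3, and leaving out KN1 mice 2 and 4 gave 0.036 for Krt10. Against the 7 pooled controls it was 0.10 for Rplp1, 0.018 for Rpsa, 0.084 for H2-DMb1, 0.0083 for Eef1b2, 0.067 for Ndufb5, 0.17 for Mrps16, 0.046 for Rplp2, 0.033 for Rps10, -0.68 for Spen, -0.056 for Fgfr2 and -0.12 for Tyrp1.

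No paired analysis was possible because KN1 and its controls share only replicate number 1. With 2 controls, and a few counts for genes near 1 CPM, small changes were not detectable at this depth.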
